A study of Mus musculus with 12 samples.

Results

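The comparison set mutant-p53 hematopoietic stem cells (HSCs) that are labelled winners of a competition against wild-type (WT) HSCs that are labelled its losers. Its arrays were chosen by their titles: the 2 arrays titled mp53 (mosaic) + IR and the 2 titled WT (mosaic) + IR, which make 4 of the 12 arrays of the series. Winner and loser cells both came from R26-mp53 mosaic mice killed 3 weeks after 2.5 Gy of irradiation. In those mice the cells that expressed mutant p53 also expressed GFP, and the WT cells were GFP-negative, so the populations were parted in the cell sorter. The other 8 arrays held either genotype from mosaic mice without irradiation, titled WT (mosaic) and mp53 (mosaic), and cells of irradiated mice that were WT or fully recombined R26-mp53 throughout, titled WT + IR and mp53 + IR. These 4 groups carry the label "no competition" and also had 2 arrays each. The p53 mutation, the way recombination was induced, and the age and sex of the mice were not stated in the labels.

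The transcription factor p53 is activated by DNA damage and switches on genes for cell cycle arrest, DNA repair and cell death. In cell competition, cells of one genotype expand in a tissue at the expense of living neighbours of another. HSCs are rare, mostly quiescent cells of the marrow that renew themselves and give rise to all blood lineages, and their self-renewal is tied to factors such as Meis1, the Hoxa genes and the CDK inhibitor Cdkn1c.

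Each array held RNA of 200 sorted cells that were lineage-, c-kit+, Sca-1+, CD48- and CD150+, amplified in successive rounds and read on Illumina bead chips. Both arrays of a group are labelled biological replicates, without word on whether they came from different mice, so errors and p-values measure only the spread between these samples. The values below are background-corrected, quantile-normalized intensities as log2, and differences are winner minus loser. The winner arrays were the brighter ones: the 95th percentile of raw intensity was 258 and 1079 on winner arrays 1 and 2 and 107 and 171 on loser arrays 1 and 2, against 82.3 to 482 on the other 8. Probes detected (detection p under 0.05) numbered 13369 and 13489 on the winner arrays and 9975 and 10948 on the loser arrays, so brightness and group moved together, and the part of brightness in the results was not tested beyond the fit with brightness as a covariate. Over 13512 probes, the winner arrays correlated at 0.92 with each other and the loser arrays at 0.85. Winner 1 correlated with loser 1 at 0.82 and winner 2 with loser 2 at 0.88, as a description over probes that share these libraries.

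The HSC label was checked against marker genes. The stem cell genes Fgd5, Robo4, Vwf, Meis1 and Hoxa7 were detected on all 4 arrays (Meis1 was picked after its values were seen). Fgd5 was dim on the winner arrays, at 4.78 and 4.71. Not all listed HSC genes were detected this way. Among those that passed the filter on dim probes, it held for 14 of 20 transcription factor genes and 14 of 24 surface and signature genes. Slamf1, which encodes CD150 and was a marker of the gate, was detected on loser array 2 alone, with 4.27 and 4.24 on the winner arrays and 4.29 and 5.86 on the loser arrays. Cd48, whose protein the gate excluded, was detected on all 4 arrays, with 8.36 and 6.27 on the winner arrays and 4.95 and 5.04 on the loser arrays, higher on both winner arrays. Kit, the receptor c-kit, stood at 5.72 and 6.13 on the winner arrays and 6.61 and 7.83 on the loser arrays. Ly6a (Sca-1), Trp53 and Bax were not analysed here, and the probes of Flt3 and Cdkn1a did not pass the filter on dim probes. Of 4 kept sex-linked transcripts, the Y-linked Eif2s3y and Kdm5d lay higher in winners, and Xist and the Y-linked Uty lower. None had an unadjusted p under 0.05 in limma. Kdm5d differed by 0.66. Uty was dim and nearly level, at 4.9 and 4.8 on the winner arrays and 4.9 and 4.8 on the loser arrays. The Y-linked Eif2s3y was at 9.21 and 8.29 on the winner arrays and 4.33 and 7.28 on the loser arrays, and Xist, which coats the inactive X chromosome, at 6.63 and 5.36 on the winner arrays and 8.53 and 6.87 on the loser arrays. Eif2s3y was near the floor on loser array 1 and high on both winner arrays, and the part of these transcripts in the other results was not tested. In 200-cell samples fewer cells of a type and less RNA per cell cannot be told apart.

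Gene by gene, no difference between winners and losers passed the test. The limma fit over all 12 arrays called 0 of 13512 probes (0%) at a Benjamini-Hochberg adjusted p under 0.05, and the smallest adjusted p was 0.282. With a trended and robust prior, 3 probes passed, among them Ndn and Rasgrp3 with an adjusted p of 0.0337, and 1 probe passed with median scaling or with no filter on dim probes. At an unadjusted p under 0.05 there were 1862 probes (13.8%). That count fell to 907 when loser replicate 1 was left out, to 1052 when winner replicate 1 was and to 902 when winner replicate 2 was. Of 8374 genes, each represented by its brightest kept probe, 0 (0%) passed the adjusted test and 1224 (14.6%) had an unadjusted p under 0.05, 650 of them higher in winners (7.76%) and 574 lower (6.85%). These shares are the background for every count of list members below. A list member that passed the filter on dim probes through the winner arrays alone had to lie higher there. The median over all genes was -0.05, and 47.3% of genes lay higher in winners.

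The replicate numbers were also compared one at a time, winner 1 with loser 1 and winner 2 with loser 2, each pair from its own deposited table. Of the 13512 probes, 10327 (76.4%) differed in the same direction in both, and the differences correlated at 0.70 (Pearson) and 0.69 (Spearman), as a description across probes. Among genes, 618 (7.38%) were at least 1 log2 higher in winners within both numbers and 498 (5.95%) at least 1 log2 lower. Both winner arrays lay above both loser arrays for 2046 genes (24.4%) and below them for 2395 (28.6%). A difference of at least 1 log2 in opposite directions was seen for 9 probes in each orientation. The median standard error of a difference was 0.49.

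**Figure D1:**
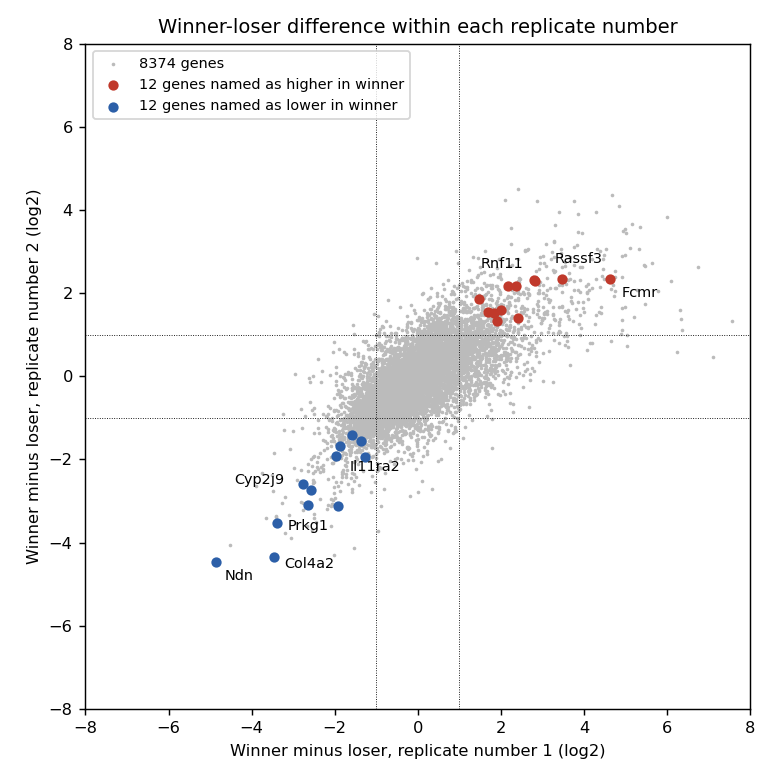
Each point is a gene, with its winner-minus-loser difference (log2) in replicate number 1 on the x axis and in replicate number 2 on the y axis. Red and blue points are the 12 genes named as higher and as lower in winners, and dotted lines mark 1 log2. The blue points run down to Ndn at -4.86 and -4.47. Most genes lie along the diagonal, and the correlation over probes was 0.70.

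The genes named first are the 12 in each direction with the smallest p among those that differed by at least 1 log2 the same way in both replicate numbers, out of 533 genes with such a probe lower and 693 with one higher in winners. Since that rule selected them on this contrast, their values are a description, and each had an adjusted p of 0.282 (limma, Benjamini-Hochberg). On the lower side stood Ndn, the imprinted gene of the growth suppressor necdin, which has been described as a p53 target in HSCs. It was at 5.50 and 5.69 on the winner arrays and 10.36 and 10.16 on the loser arrays, a difference of -4.66 (SE 0.56), or 25.3-fold lower. Both winner values fell outside the range of the other 8 arrays, which was 7.98 to 11.01, whereas both loser values lay inside it. Prkg1, the cGMP-dependent protein kinase, was at 6.78 and 6.21 on the winner arrays and 10.18 and 9.74 on the loser arrays (-3.46, SE 0.61). Col4a2, a chain of basement membrane collagen IV, was at 5.27 and 5.27 on the winner arrays and 8.74 and 9.62 on the loser arrays (-3.91, SE 0.78). In both genes the winner arrays sat below every other array, and for Col4a2 loser array 2 was above every other.

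Il11ra2, an alpha chain of the interleukin 11 receptor, was at 8.25 and 8.59 on the winner arrays and 10.23 and 10.51 on the loser arrays (-1.95, SE 0.34). It is a close copy of Il11ra1, so its probe may read both. Cyp2j9, a cytochrome P450, was at 5.36 and 5.24 on the winner arrays and 8.12 and 7.83 on the loser arrays (-2.67, SE 0.47). Kank2, an adaptor of the cytoskeleton at adhesion sites, was at 5.53 and 5.62 on the winner arrays and 8.19 and 8.70 on the loser arrays (-2.87, SE 0.50). In each of these 3 genes the winner values were close together and clearly apart from the loser values. The remaining 6 were Haghl, Flywch2, Erich2, Maged1, a MAGE family protein, Gprasp1, a sorting protein for G protein-coupled receptors, and Glb1, the lysosomal beta-galactosidase, with differences from -2.66 to -1.47, and 11 of the 12 were detected on all 4 arrays. Erich2 was the exception, not detected in winners and at least 2.56-fold lower there, and its brightest probe had the opposite sign, at 2.36 and 0.60 in replicate numbers 1 and 2. In 11 of the 12, both winner arrays lay below the other 10 arrays of the series, as for 4.12% of all genes, a count that the choice of these genes favours. With median scaling in place of quantile normalization, where the median of all probes moved to 1.07, the differences of Il11ra2, Haghl, Gprasp1 and Glb1 turned positive, to values of 0.12 to 0.61 that stayed below that median.

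The 12 genes on the higher side were dimmer, and for 10 of them neither loser array was above background. For those a fold is a lower bound: the winner mean against the higher of the loser value and the lowest detected value on each loser array. B3gat3, a glucuronosyltransferase that builds the linker of glycosaminoglycan chains, was at 7.62 and 7.03 on the winner arrays and 4.80 and 4.74 on the loser arrays, at least 5.49-fold higher. Fcmr, the Fc receptor for IgM, was at 8.92 and 7.11 on the winner arrays and 4.29 and 4.76 on the loser arrays, at least 8.86-fold higher. Its winner arrays were both high but apart from each other. Acsl4, which activates long-chain fatty acids, was at 6.09 and 6.27 on the winner arrays and 4.63 and 4.42 on the loser arrays, at least 2.49-fold higher, on a dimmer probe. The brightest probe of Acsl4 differed by 0.19 and 0.79 in replicate numbers 1 and 2. Rasgrp3, an exchange factor for Ras, was at 6.34 and 5.85 on the winner arrays and 4.33 and 4.25 on the loser arrays, at least 2.34-fold higher. Neither gene overlapped between groups, as held for 24.4% of all genes on the higher side. The range of the other 8 arrays was 5.28 to 5.69 for Acsl4 and 4.27 to 4.73 for Rasgrp3. Anxa2, the calcium-dependent membrane protein annexin A2, was at 7.05 and 6.78 on the winner arrays and 4.25 and 4.46 on the loser arrays, at least 4.14-fold higher. Rassf3, a Ras association domain protein, was at 8.04 and 7.26 on the winner arrays and 4.57 and 4.91 on the loser arrays (2.91, SE 0.53), and Rnf11, a RING finger protein, at 6.95 and 7.27 on the winner arrays and 4.58 and 5.09 on the loser arrays (2.27, SE 0.39). Another probe of Rnf11 differed in sign. Lat2, an adaptor of B cells and myeloid cells, Fcrla, an Fc receptor-like protein of B cells, Tnni2, a muscle troponin, Kctd12 and Btnl10 were at least 2.22-fold to 4.29-fold higher. In 8 of the 12, both winner arrays lay above the other 10 arrays, as for 4.07% of all genes, a count that the choice of these genes favours.

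**Figure D2:**
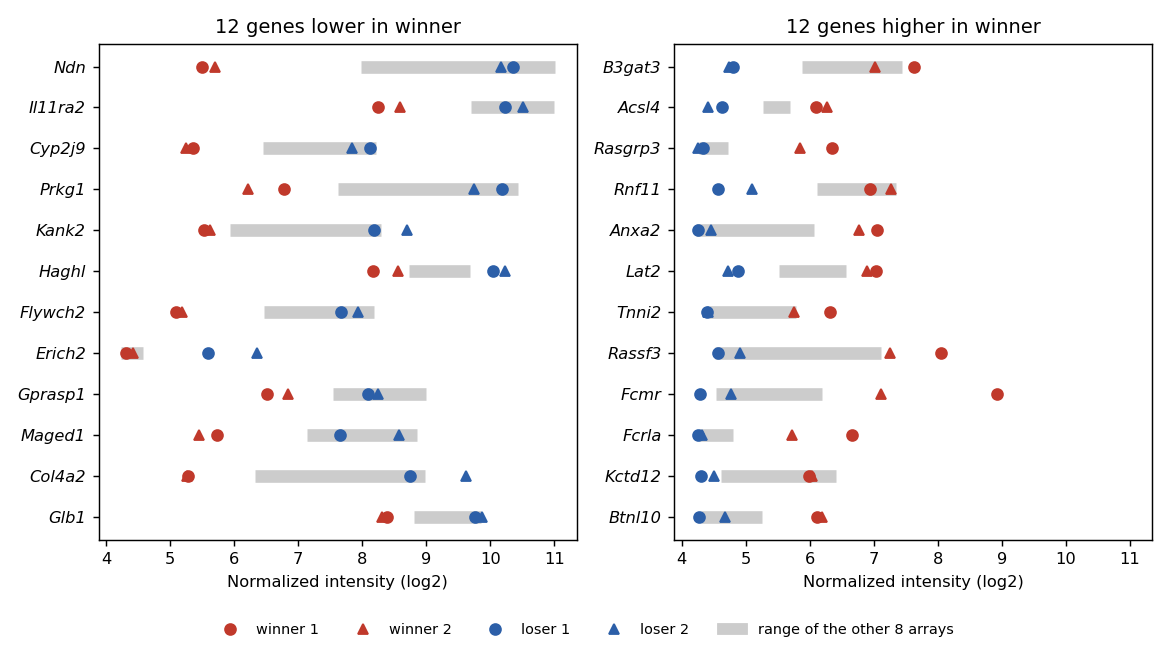
Normalized intensity (log2, x axis) of the 12 genes named as lower (left) and the 12 named as higher in winners (right). Circles and triangles are replicates 1 and 2 of winners (red) and losers (blue), and grey bars span the other 8 arrays. Red symbols lie left of the bar for 11 genes on the left panel (4 of the 12 turned direction with median scaling) and right of it for 8 on the right panel.

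Promoter sequences are shown for 4 genes at the ends of the comparison, to set the letters at their starts beside the share of all promoters that hold them. They are RefSeq windows of GRCm38.p6 (300 bases, most of them before the start), all on the plus strand, 5′ to 3′. Capitals mark matches on either strand to AGGAAG, a core of ETS factor sites, AGATAA, read by GATA factors, CACGTG, an E-box, or CCAAT. Ndn and the HSC marker Fgd5 were lower in winners, and the monocyte and dendritic cell factor Irf8 and Rasgrp3 were higher.
Ndn (chr7:62348027-62348326): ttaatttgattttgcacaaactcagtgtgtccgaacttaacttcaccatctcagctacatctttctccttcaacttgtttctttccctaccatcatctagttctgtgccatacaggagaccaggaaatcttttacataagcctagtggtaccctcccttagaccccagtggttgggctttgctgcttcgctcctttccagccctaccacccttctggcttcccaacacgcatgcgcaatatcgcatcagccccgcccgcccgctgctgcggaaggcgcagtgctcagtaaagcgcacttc
Fgd5 (chr6:91978715-91979014): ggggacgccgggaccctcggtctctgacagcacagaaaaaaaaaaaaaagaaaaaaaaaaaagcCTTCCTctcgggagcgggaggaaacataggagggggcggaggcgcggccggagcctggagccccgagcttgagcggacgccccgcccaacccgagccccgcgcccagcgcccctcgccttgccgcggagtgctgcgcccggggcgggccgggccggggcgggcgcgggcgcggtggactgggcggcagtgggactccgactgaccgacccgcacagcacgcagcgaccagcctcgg
Irf8 (chr8:120736108-120736407): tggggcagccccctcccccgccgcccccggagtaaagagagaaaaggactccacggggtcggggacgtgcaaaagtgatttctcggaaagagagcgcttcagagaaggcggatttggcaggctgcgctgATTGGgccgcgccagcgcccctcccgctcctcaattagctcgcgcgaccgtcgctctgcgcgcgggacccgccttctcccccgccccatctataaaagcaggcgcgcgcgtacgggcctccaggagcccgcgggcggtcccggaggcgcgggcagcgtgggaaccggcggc
Rasgrp3 (chr17:75435655-75435954): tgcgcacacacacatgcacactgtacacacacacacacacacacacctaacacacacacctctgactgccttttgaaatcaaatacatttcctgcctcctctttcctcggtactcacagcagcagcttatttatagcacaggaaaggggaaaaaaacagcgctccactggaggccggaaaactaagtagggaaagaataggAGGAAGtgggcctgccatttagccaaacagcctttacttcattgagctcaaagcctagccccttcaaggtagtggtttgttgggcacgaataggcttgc
Fgd5 and Rasgrp3 each hold 1 AGGAAG and Irf8 holds 1 CCAAT. The Ndn window holds none of the 4 strings, with 11 CpG pairs against 37 in Fgd5, 38 in Irf8 and 5 in Rasgrp3. Irf8 and Rasgrp3 each have 2 windows in the table, of which 1 is shown.

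Across all 32851 windows, AGGAAG was present in 35.4%, AGATAA in 11.2%, CACGTG in 7.15% and CCAAT in 37.4%. For the 6875 genes tested that had windows, the shares were 33.5%, 7.25%, 10.1% and 36.9%. Genes at least 1 log2 higher in winners in both replicate numbers had 636 windows from 480 genes, with AGGAAG in 42.3%, AGATAA in 7.39%, CACGTG in 9.12% and CCAAT in 34.7%. Genes at least 1 log2 lower had 516 windows from 401 genes, with 36.6%, 9.3%, 7.56% and 35.3%. A match is a run of letters and no measured site.

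Detection itself was uneven between the groups. Of the 8374 genes, 4890 (58.4%) were detected on all 4 arrays, 827 (9.88%) on both winner arrays and neither loser array, and 91 (1.09%) on both loser arrays and neither winner array. The losers were also the dimmer arrays, and a gene that passed the filter through the winner arrays alone had to lie higher there. Trpm2, a calcium-permeable channel of myeloid cells, was at 9.15 and 8.89 on the winner arrays and 4.47 and 4.52 on the loser arrays, at least 17.8-fold higher in winners, and Sirpb1b, a receptor of the SIRP family, at 9.14 and 8.80 on the winner arrays and 4.31 and 4.69 on the loser arrays, at least 17.2-fold. Irf8 was at 9.44 and 8.14 on the winner arrays and 4.29 and 4.48 on the loser arrays, at least 15.2-fold higher. Blnk, the adaptor downstream of the B cell receptor, was at least 12.2-fold higher, Klra17, a Ly49 family receptor, at least 12.5-fold, and Lilr4b, an inhibitory leukocyte receptor, at least 10.8-fold. All 6 are known from immune cells. For Sirpb1b, Irf8 and Blnk the winner arrays lay above the other 10, and for the rest the other 8 arrays reached up to winner values, as for Trpm2 at 4.54 to 9.08.

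On the loser side, Tceal5 was at 4.42 and 4.59 on the winner arrays and 8.32 and 7.23 on the loser arrays, at least 8.92-fold lower in winners. Col16a1, a fibril-associated collagen, was at 4.58 and 4.55 on the winner arrays and 6.12 and 8.69 on the loser arrays, at least 6.92-fold lower. Tle2, a Groucho family corepressor, was at least 5.32-fold lower, Col4a1, the partner chain of Col4a2, at least 3.65-fold, Myct1 at least 3.56-fold, and the oxysterol hydroxylase Cyp7b1 at least 3.29-fold. Both collagen IV chains lay lower in winners.

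Genes that mark or maintain HSCs lay mostly lower in winners than in losers on both pairs of arrays, with 1 list median, that of the transcription factors, turning positive under median scaling. Of 33 HSC transcription factor genes listed, 32 had a named probe and 20 passed the filter. Of these 20, 16 lay lower in winners, 7 with an unadjusted p under 0.05, and 11 were at least 1 log2 lower in both replicate numbers, against 5.95% of all genes. The median difference was -1.28 (-1.34 and -1.25 within replicate numbers 1 and 2), which became 0.14 with median scaling, or -1.13 relative to the median of all genes under that scaling. Zfp521, a zinc finger factor of immature blood cells, was at 5.54 and 5.12 on the winner arrays and 7.82 and 7.41 on the loser arrays (-2.28, SE 0.47). Hoxa7 was at 6.04 and 6.34 on the winner arrays and 8.23 and 9.55 on the loser arrays (-2.70, SE 0.63), and Hoxa5 at 5.53 and 5.05 on the winner arrays and 8.30 and 8.27 on the loser arrays (-2.99, SE 0.71). The Hoxa genes encode homeodomain factors of stem and progenitor cells. Both showed no overlap between groups, as did 28.6% of all genes on the lower side. For Hoxa5 both loser arrays lay above the other 10, as they did for 1.49% of all genes. Genes picked after their values were seen include Meis1, the Hox cofactor, at 8.79 and 7.30 on the winner arrays and 11.45 and 10.91 on the loser arrays (-3.14, SE 0.75), and Nkx2-3 at 5.16 and 4.86 on the winner arrays and 8.57 and 8.23 on the loser arrays (-3.39, SE 0.84). Of the 4 members higher in winners, 1 had an unadjusted p under 0.05, the transcriptional repressor Bcl6, at 9.74 and 9.36 on the winner arrays and 5.78 and 5.90 on the loser arrays (3.71, SE 1.09). In the fit with brightness as a covariate the median was -0.56.

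Of 34 surface and signature genes of HSCs, 31 had a named probe and 24 were kept. Of the 24, 19 lay lower in winners, 9 with an unadjusted p under 0.05, and 9 were at least 1 log2 lower in both replicate numbers. The median was -0.73 (-0.77 and -0.999 within replicate numbers). Fgd5, a guanine nucleotide exchange factor known as an HSC marker, stood at 4.78 and 4.71 on the winner arrays and 7.29 and 8.03 on the loser arrays (-2.91, SE 0.60), or 7.52-fold lower. Robo4, a receptor that aids homing of HSCs to the marrow, was at 6.53 and 5.44 on the winner arrays and 9.72 and 9.22 on the loser arrays (-3.49, SE 0.72). Vwf, von Willebrand factor, was at 7.10 and 6.20 on the winner arrays and 9.17 and 9.27 on the loser arrays (-2.57, SE 0.62). All 3 were lower on both winner arrays than on any other array. The same held for 11 of the 24, against 4.12% of all genes, the other 8 being Ctnnal1, Emcn, Esam, Ifitm1, Jam2, Mmrn1, Muc13 and Sult1a1, of which Jam2 was not above background on either winner array and Esam on 1. Among the transcription factors it held for 4 of 20, namely Hoxa7, Meis1, Nkx2-3 and Zfp521. Gda, the enzyme guanine deaminase, and Itgb3, the integrin beta 3 chain, were the members with an unadjusted p under 0.05 on the higher side, at 8.29 and 8.74 against 4.63 and 5.86 and 5.57 and 4.88 against 4.33 and 4.30 (winners against losers).

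**Figure D3:**
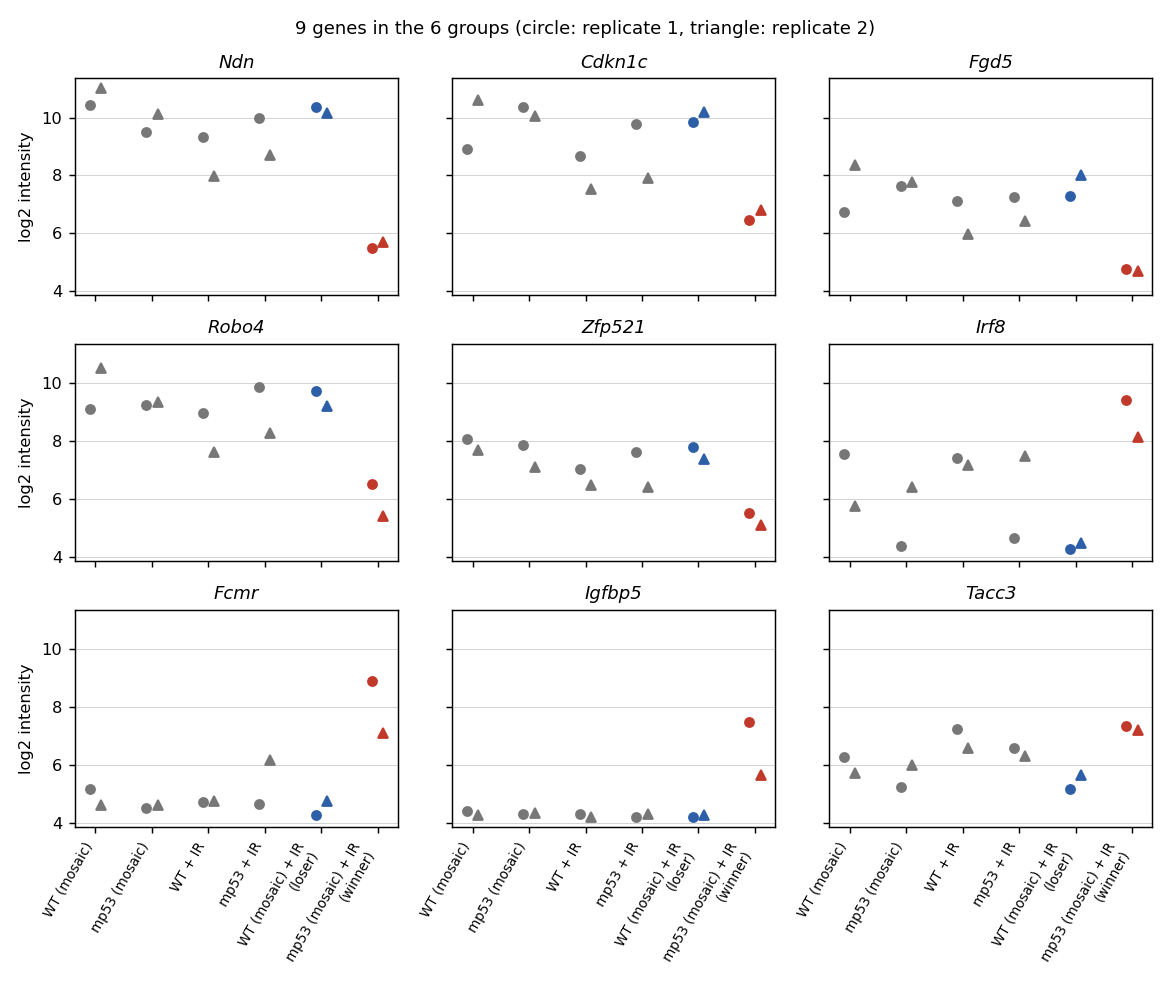
Normalized intensity (log2, y axis) of 9 genes on both arrays of each of the 6 groups (x axis). Circles are replicate 1 and triangles replicate 2, with winners in red, losers in blue and the other groups in grey. Winner values of Ndn, Cdkn1c, Fgd5, Robo4 and Zfp521 are below all others, and those of Irf8, Fcmr and Igfbp5 above all others, while Tacc3 in winners is within the reach of WT + IR.

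Imprinted genes were few among the kept probes, 11 of the 26 with a named probe. Of the 11, 10 lay lower in winners (median -0.39). In both replicate numbers 4 were at least 1 log2 lower, against 5.95% of all genes, and 3 had an unadjusted p under 0.05, against 6.85%. Besides Ndn these were Cdkn1c, the CDK inhibitor p57 that holds HSCs in quiescence, at 6.45 and 6.81 on the winner arrays and 9.86 and 10.18 on the loser arrays (-3.39, SE 0.72, 10.5-fold lower), and Grb10, a growth factor receptor adaptor, at 6.75 and 6.55 on the winner arrays and 9.10 and 8.39 on the loser arrays (-2.10, SE 0.59). For all 3 the winner arrays lay below the other 10, as for 4.12% of all genes. These 3 had the smallest p of the list, a choice that favours this. The fourth member past 1 log2 was Mkrn3, at 4.49 and 4.80 against 5.59 and 7.20 (winners against losers), and Gatm, an enzyme of creatine synthesis, was the member higher in winners. Both were picked after their values were seen.

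The surface genes of the gate did not move as a set: 5 of 8 kept members lay higher and 3 lower (median 0.78, -0.17 over probes with a mean of at least 6). Cd34, a sialomucin that adult mouse HSCs largely lack and progenitors carry, was at 6.41 and 6.11 on the winner arrays and 8.14 and 8.07 on the loser arrays (-1.84, SE 0.55). Thy1 was not detected in losers and at least 1.3-fold higher in winners, at 5.24 and 5.26 on the winner arrays and 4.31 and 4.38 on the loser arrays. Ly6e, a relative of Sca-1, was at 9.59 and 9.27 on the winner arrays and 8.59 and 8.35 on the loser arrays (0.96, SE 0.33). For Kit both winner values were below the other 10 arrays, though the differences of Kit and Cd34 turned to 0.38 and 0.09 with median scaling.

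Markers of mature blood cells were higher in winners for most lineages listed, although the gate excluded lineage-positive cells. Their part in the differences above was not tested, and their levels are given for each array. Of 18 kept monocyte and dendritic cell genes, 17 lay higher in winners and 13 had an unadjusted p under 0.05 in that direction, against 7.76% of all genes. The median was 1.99 (1.98 and 2.15 within replicate numbers). Of the 18, 8 were detected on both winner arrays and neither loser array, and 3 on all 4 arrays. Since a member kept through the winner arrays alone had to lie higher there, the counts for this list describe the kept members only. Mrc1, the mannose receptor, was at 6.01 and 5.71 on the winner arrays and 4.30 and 4.28 on the loser arrays, at least 1.99-fold higher, and Ly86, a partner of the receptor Rp105, at 7.24 and 6.62 on the winner arrays and 4.30 and 4.34 on the loser arrays, at least 4.17-fold higher. Members detected numbered 18 and 18 on the winner arrays and 3 and 10 on the loser arrays. The summed linear level of the 18 was 7958 and 5884 on the winner arrays and 752 and 1282 on the loser arrays, against 806 to 5516 on the other 8. Both winner arrays thus exceeded all others for this list.

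B lineage genes also lay higher in winners, more so in replicate number 1. Of 14 kept members, 13 lay higher in winners, 10 with an unadjusted p under 0.05, and 9 were detected on both winner arrays and neither loser array (median 1.62, and 2.25 and 0.86 within replicate numbers). Il7r, the interleukin 7 receptor of lymphoid progenitors, was at 6.83 and 5.92 on the winner arrays and 4.27 and 4.26 on the loser arrays, at least 2.84-fold higher, and Fcrla at 6.66 and 5.73 on the winner arrays and 4.25 and 4.32 on the loser arrays, at least 2.52-fold. Members detected numbered 14 and 13 on the winner arrays and 3 and 4 on the loser arrays. The summed level was 3592 and 1405 on the winner arrays and 628 and 722 on the loser arrays, against 621 to 1075 on the other 8. Both winner arrays exceeded the other 10 in 8 of the 14 genes, against 4.07% of all genes, namely Blnk, Cd79a, Cd79b, Fcmr, Fcrla, Il7r, Rag1 and Spib. Members that passed the filter through the winner arrays alone had to lie higher there, so the counts for this list are a description. In the T and NK list 9 of 11 members lay higher (median 1.10). Of the 11, 4 were detected on both winner arrays and neither loser array, so this count too is a description. Cd3d, a chain of the T cell receptor complex, was at 7.20 and 9.02 on the winner arrays and 4.78 and 4.51 on the loser arrays, at least 9.48-fold higher. The other 8 arrays ran over 4.35 to 8.90, so the winner arrays were not outside them.

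Neutrophil granule genes had the highest median of the 39 lists, 2.61, and it was uneven between replicate numbers at 3.46 and 1.60. Of 22 kept members, 21 lay higher in winners, 5 with an unadjusted p under 0.05, and 15 were at least 1 log2 higher in both replicate numbers, against 7.38% of all genes. Mmp8, the neutrophil collagenase, was at 8.80 and 7.37 on the winner arrays and 4.26 and 4.29 on the loser arrays, at least 9.29-fold higher. Retnlg, a resistin-like protein of neutrophils, was at 10.49 and 10.72 on the winner arrays and 4.50 and 6.89 on the loser arrays (4.91, SE 1.96), and its loser arrays were far apart. Members detected numbered 22 and 22 on the winner arrays and 12 and 18 on the loser arrays. The summed level was 77140 and 74810 on the winner arrays and 10920 and 41620 on the loser arrays. The other 8 arrays ran over 1657 to 82950, a range that held both winner arrays. The limma p-values take their spread from all 6 groups, and the non-competing mp53 arrays stood far apart, at 1657 and 76690. The part of that spread in the p-values of this list was not tested. With brightness as a covariate the median was 0.51. Mcpt8, a basophil protease, was at 9.68 and 8.04 on the winner arrays and 4.23 and 5.36 on the loser arrays (4.06, SE 1.52), and the mast cell and basophil list had a median of 0.81 over 7 kept members.

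Erythroid genes lay higher in winners for 20 of 24 kept members, 6 with an unadjusted p under 0.05 (median 1.80, 2.42 and 1.11 within replicate numbers, and 0.28 with brightness as a covariate). Slc25a37, the iron importer mitoferrin of red cell precursors, was at 8.90 and 8.03 on the winner arrays and 5.50 and 6.72 on the loser arrays (2.36, SE 0.59), and Alas2, the first enzyme of erythroid heme synthesis, at 8.90 and 7.73 on the winner arrays and 5.78 and 5.65 on the loser arrays (2.60, SE 0.86). Fech, the last enzyme of that pathway, stood at 6.77 and 6.42 against 4.35 and 5.27 (winners against losers), with another probe of opposite sign. The summed level was 23990 and 15760 on the winner arrays and 3605 and 9882 on the loser arrays, against 3958 to 14160 on the other 8. Megakaryocyte and platelet genes lay the other way, with 6 of 9 lower (median -1.50, but -0.20 and -1.92 within replicate numbers), and the median became 0.49 with median scaling and 0.41 with brightness as a covariate. F2r, the thrombin receptor, was at 10.24 and 9.10 on the winner arrays and 11.78 and 11.62 on the loser arrays (-2.03, SE 0.75). Of 9 kept stromal and endothelial genes 5 lay higher, all with an unadjusted p under 0.05 in limma, against 7.76% of all genes. But 4 of the 9 were detected on both winner arrays and neither loser array. Members kept through the winner arrays alone had to lie higher there, so this count is a description. Igfbp5, an IGF-binding protein, was at 7.48 and 5.66 on the winner arrays and 4.20 and 4.28 on the loser arrays, at least 3.26-fold higher. For Igfbp5 the other 8 arrays were at 4.22 to 4.40.

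**Figure D4:**
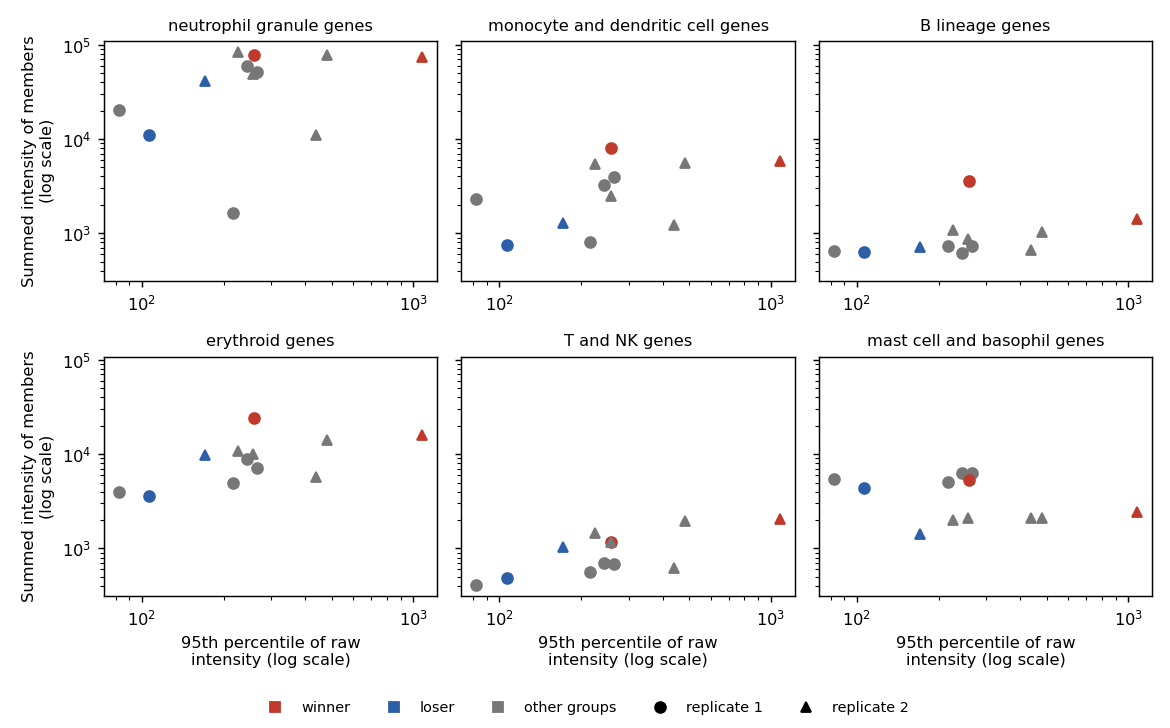
Summed linear intensity of the kept members of 6 lineage lists on each of the 12 arrays (y axis, log scale) against the array's 95th percentile of raw intensity (x axis, log scale). Circles are replicate 1 and triangles replicate 2. Winners are red, losers blue and the other groups grey. Winner arrays are above all others for the monocyte and dendritic, B lineage and erythroid lists, and lie within the range of the other groups for neutrophil genes, where grey points run from 1657 to 82950.

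Genes of cytokine signalling differed in both directions. Of 16 kept cytokine and growth factor receptor genes, 11 lay higher and 5 lower in winners (median 0.78). Il10rb, a chain of the interleukin 10 and interferon lambda receptors, was at 7.63 and 6.88 on the winner arrays and 5.17 and 5.47 on the loser arrays (1.94, SE 0.57). Il6st, the shared signal chain gp130, was not detected in losers and stood at 4.93 and 4.98 on the winner arrays and 4.21 and 4.32 on the loser arrays. Among the downstream genes, Socs3, an inhibitor of Jak kinases, was at 7.12 and 6.80 on the winner arrays and 4.94 and 4.64 on the loser arrays (2.17, SE 0.59), higher in winners, and Socs5 at 4.75 and 4.90 on the winner arrays and 6.37 and 6.74 on the loser arrays (-1.73, SE 0.65), lower. Of 15 kept Jak, Stat and Socs genes 8 lay higher and 7 lower, with a median of 0.09 that turned to -0.06 with an offset of 50. For Socs3 both loser arrays, 1 of them above background, lay below the other 10, as for 1.7% of all genes.

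Adhesion genes of leukocytes lay mostly higher in winners, 12 of 19 kept, 5 with an unadjusted p under 0.05, against 7.76% of all genes (median 0.38). Of the 19, 5 were detected on both winner arrays and neither loser array. Since a member kept through the winner arrays alone had to lie higher there, these counts are a description. Itgb7, the integrin beta 7 chain, was at 7.83 and 7.61 on the winner arrays and 4.95 and 6.01 on the loser arrays (2.24, SE 0.63). Cxcr2, a chemokine receptor of neutrophils, was at 6.97 and 5.86 on the winner arrays and 4.38 and 4.66 on the loser arrays, at least 2.93-fold higher, and the tetraspanin Cd82 at 5.83 and 5.81 on the winner arrays and 4.36 and 4.57 on the loser arrays, at least 1.94-fold. For all 3 both winner arrays lay above the other 10, as for 5 of the 19 members and 4.07% of all genes. These 3 were named for their small p, a choice that favours this. In the TGF-beta and BMP pathway, 11 of 18 members were lower and 7 higher (median -0.14, 1.06 with median scaling). Skil, a repressor of Smad proteins, was not detected in losers and at least 2.59-fold higher in winners, at 6.58 and 5.90 on the winner arrays and 4.62 and 4.30 on the loser arrays. The co-receptor Tgfbr3 was at 6.30 and 5.24 on the winner arrays and 8.39 and 8.18 on the loser arrays (-2.52, SE 0.70) and the signal transducer Smad3 at 9.75 and 9.41 on the winner arrays and 10.62 and 10.75 on the loser arrays (-1.10, SE 0.34), both below the other 10 arrays in winners. Smad3 turned direction with median scaling. In the Notch and Wnt list 6 of 14 lay higher (median -0.04, 0.64 with median scaling). The receptor Notch1 was at 9.02 and 8.65 on the winner arrays and 7.01 and 7.12 on the loser arrays (1.77, SE 0.72), and its coactivator Maml1 at 9.88 and 9.93 on the winner arrays and 9.13 and 8.25 on the loser arrays (1.22, SE 0.43). Lef1, a transcription factor of the Wnt pathway, was lower, at 4.63 and 4.47 on the winner arrays and 5.42 and 5.43 on the loser arrays (-0.87, SE 0.28).

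Targets of p53 did not separate the genotypes as a list. Of 34 genes listed, 32 had a named probe and 16 were kept. Of the 16, 6 lay higher and 10 lower in winners, 1 with an unadjusted p under 0.05, and the median was -0.15 (-0.13 and 0.09 within replicate numbers, and 1.26 with median scaling). Mdm2, the ubiquitin ligase that p53 induces and that degrades it, was at 9.83 and 10.05 on the winner arrays and 10.37 and 10.21 on the loser arrays (-0.35, SE 0.30). Ccng1, cyclin G1, was at 8.45 and 8.25 on the winner arrays and 9.55 and 8.11 on the loser arrays (-0.48, SE 0.54), and its difference turned to 0.25 without loser replicate 1. Both differences turned positive with median scaling. The Mdm2 values did not overlap between groups but had an unadjusted p of 0.273 in limma, and those of Ccng1 overlapped. Tigar, a regulator of glycolysis, was at 6.85 and 7.51 on the winner arrays and 4.62 and 5.78 on the loser arrays (1.97, SE 0.80), and the repair gene Xpc at 7.80 and 8.81 on the winner arrays and 4.55 and 7.15 on the loser arrays (2.45, SE 1.13). Both were higher on each winner array than on either loser array, as were 24.4% of all genes, and the loser arrays were far apart. Apaf1, of the apoptosome, was at 8.81 and 9.41 against 6.89 and 8.11 (winners against losers).

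Among cell cycle regulators of G1, Ccnd2 and Ccnd1, the D-type cyclins, were lower in winners, at 8.11 and 6.75 on the winner arrays and 10.12 and 9.55 on the loser arrays (-2.40, SE 0.83) and at 7.86 and 7.25 on the winner arrays and 9.90 and 9.68 on the loser arrays (-2.23, SE 0.83). Txnip, an inhibitor of thioredoxin, was at 9.93 and 9.17 against 10.55 and 10.59 (winners against losers). Of the 13 kept members 9 lay lower (median -0.17, 1.01 with median scaling). Mitotic genes lay higher in winners for 30 of 31 kept members, but 2 of these 30 had an unadjusted p under 0.05 and 6 were at least 1 log2 higher in both replicate numbers. Their median was 0.95 (1.33 and 0.58 within replicate numbers), and -0.16 with brightness as a covariate. Of the 31, 5 were detected on both winner arrays and neither loser array. Tacc3, a spindle protein, was at 7.35 and 7.21 on the winner arrays and 5.18 and 5.68 on the loser arrays (1.86, SE 0.39). The kinase Aurkb was not detected in losers and at least 2.13-fold higher in winners, at 5.95 and 5.96 on the winner arrays and 4.27 and 4.69 on the loser arrays. Bub1, a checkpoint kinase of the spindle, was the one member lower, at 5.08 and 4.61 on the winner arrays and 6.53 and 5.70 on the loser arrays (-1.27, SE 0.45). DNA replication genes were near balance, with 22 of 33 higher (median 0.20), 0 with an unadjusted p under 0.05 in that direction. The sign of that median turned with brightness as a covariate and without loser replicate 1. Rfc5, a clamp loader subunit, was lower, at 8.85 and 8.98 on the winner arrays and 9.88 and 9.62 on the loser arrays (-0.83, SE 0.26), a direction that turned with median scaling.

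DNA repair and checkpoint genes showed no shift, 11 of 24 higher with a median of -0.03 (1.55 with median scaling). The member with an unadjusted p under 0.05 was Trp53bp1, the double-strand break protein 53BP1, at 7.48 and 6.56 on the winner arrays and 8.98 and 8.60 on the loser arrays (-1.77, SE 0.42), lower in winners and turned by median scaling. In the Bcl2 family and caspases, 12 of 19 lay higher (median 0.41, -0.04 over probes with a mean of at least 6). Bok, a pro-apoptotic member, was at 4.97 and 5.04 on the winner arrays and 7.78 and 8.06 on the loser arrays (-2.91, SE 0.74, 7.53-fold lower in winners). Bcl2a1b and Bcl2a1a, anti-apoptotic genes of myeloid cells, were at 7.96 and 7.03 on the winner arrays and 5.31 and 5.02 on the loser arrays (2.33, SE 0.62) and at 6.17 and 5.47 on the winner arrays and 4.26 and 4.23 on the loser arrays (at least 1.93-fold higher). These 2 are near-identical copies whose probes may read both. Bok lay below all other arrays in winners.

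Inflammatory genes lay higher in winners for 16 of 21 kept members, 6 with an unadjusted p under 0.05, against 7.76% of all genes (median 0.40). Of the 21, 6 were detected on both winner arrays and neither loser array. A member kept through the winner arrays alone had to lie higher there, so the counts for this list are a description. Il1b, the cytokine interleukin 1 beta, was at 8.20 and 8.29 on the winner arrays and 4.34 and 4.39 on the loser arrays, at least 10.4-fold higher, and Tnfaip3, the NF-kB inhibitor A20, at 6.78 and 6.91 on the winner arrays and 4.48 and 5.84 on the loser arrays (1.69, SE 0.60). Myd88, the adaptor of Toll-like receptors, was at 8.47 and 8.25 on the winner arrays and 6.14 and 7.46 on the loser arrays (1.55, SE 0.52). Il1b was not above background on either loser array, and its winner values were within the range of the other groups, 4.46 to 8.41. Of 17 immediate early genes 11 were higher (median 0.66), and 5 of the 17 were detected on both winner arrays and neither loser array. Klf4, a zinc finger factor of monocytes, was at 7.78 and 6.92 on the winner arrays and 4.31 and 4.28 on the loser arrays, at least 5.59-fold higher, and Rgs1, a regulator of G protein signalling, at 5.88 and 4.97 on the winner arrays and 8.52 and 7.25 on the loser arrays (-2.46, SE 0.94), lower. Interferon-response genes were balanced, 10 of 18 higher with a median of 0.05, which was -0.40 over probes with a mean of at least 6. Rsad2, the antiviral protein viperin, was at 9.12 and 8.90 on the winner arrays and 6.72 and 7.54 on the loser arrays (1.88, SE 0.51). In the MHC class II list 5 of 10 lay higher, and H2-Ab1 was at 7.41 and 7.03 on the winner arrays and 5.18 and 5.86 on the loser arrays (1.70, SE 0.73), above the other 10 arrays in winners.

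Among genes of protein synthesis, of 45 kept genes of cytosolic ribosomal proteins, 43 were lower, 3 with an unadjusted p under 0.05 and 2 at least 1 log2 lower in both replicate numbers (median -0.44, -0.34 and -0.41 within replicate numbers), a direction that turned with median scaling to 1.19, or -0.09 relative to all genes. Rpl22 was at 6.34 and 5.86 on the winner arrays and 7.62 and 7.75 on the loser arrays (-1.58, SE 0.45, and 0.24 with median scaling). The mean level of the 45 was 10.003 and 10.07 on the winner arrays and 10.44 and 10.52 on the loser arrays. Of 30 ribosome biogenesis genes 23 were lower, 4 with an unadjusted p under 0.05 (median -0.51, 1.17 with median scaling, or -0.10 relative to all genes). Gar1, a protein of box H/ACA particles, was at 8.93 and 9.53 on the winner arrays and 10.51 and 10.49 on the loser arrays (-1.27, SE 0.32), and the nucleolar Nolc1 at 5.86 and 6.67 on the winner arrays and 7.54 and 8.32 on the loser arrays (-1.66, SE 0.45), and both turned with median scaling. The 67 mitochondrial ribosomal proteins were split 34 to 33 (median 0.0014), a sign that turned with quantile normalization within replicate numbers, the offset of 50 and the authors' table.

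Metabolic lists differed in size and direction. Of 62 respiratory chain genes 46 lay higher (median 0.26, -0.32 with brightness as a covariate), and Cox6a2, a subunit of cytochrome c oxidase in muscle, was at least 5.59-fold higher, at 7.62 and 7.08 on the winner arrays and 4.67 and 4.35 on the loser arrays. Glycolysis genes were split 8 higher to 9 lower, a median of -0.04 that turned to 1.44 with median scaling, and 0 had an unadjusted p under 0.05. Proteasome subunits were split 18 to 12 and chaperones 11 to 8. Of 18 genes of cholesterol and fatty acid synthesis 13 were lower, 4 with an unadjusted p under 0.05 (median -0.41, 1.26 with median scaling, or -0.02 relative to all genes). Scd2, a stearoyl-CoA desaturase, was at 9.64 and 9.91 on the winner arrays and 11.36 and 11.12 on the loser arrays (-1.46, SE 0.38), and Srebf2, the sterol regulator SREBP2, at 6.92 and 7.57 on the winner arrays and 8.76 and 8.30 on the loser arrays (-1.28, SE 0.37). Both were lower in winners and turned with median scaling.

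Lysosome and autophagy genes were among the higher lists, 20 of 25 higher in winners, 8 with an unadjusted p under 0.05 and 8 at least 1 log2 higher in both replicate numbers (median 0.73, 0.85 and 0.68 within replicate numbers, and 0.64 with brightness as a covariate). Gabarap, a protein of autophagosome membranes, was at 7.0 and 6.91 on the winner arrays and 4.60 and 4.91 on the loser arrays (2.20, SE 0.45), and cathepsin Ctsz at 6.61 and 6.47 on the winner arrays and 4.55 and 5.08 on the loser arrays (1.72, SE 0.41). Map1lc3a, another autophagosome protein, was lower, at 4.99 and 4.91 on the winner arrays and 5.84 and 6.22 on the loser arrays (-1.08, SE 0.33). Lysosomal genes are also strongly expressed in phagocytes, whose markers were higher on the same arrays, and that part was not tested. Antioxidant genes were higher in 15 of 22 (median 0.34, -0.12 with brightness as a covariate), with Hmox1, heme oxygenase 1, at 7.15 and 5.49 on the winner arrays and 4.35 and 4.80 on the loser arrays, at least 2.74-fold higher. Among chromatin regulators, 10 of 17 higher, the DNA methyltransferase Dnmt3b was at 8.68 and 7.88 on the winner arrays and 10.73 and 10.85 on the loser arrays (-2.51, SE 0.74) and Satb1, a chromatin organizer of lymphoid cells, at 9.43 and 9.14 on the winner arrays and 5.52 and 7.66 on the loser arrays (2.69, SE 1.02). Dnmt3b lay below all other arrays in winners.

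Whether the winner-loser difference departed from the genotype difference elsewhere was asked with interaction terms. Against mp53 minus WT in unirradiated mosaic mice, limma called 0 of 13512 probes (0%) after Benjamini-Hochberg adjustment, and 2106 (15.6%) had an unadjusted p under 0.05. The adjusted count did not stay at 0 without unirradiated mp53 replicate 2. That fit leaves its group with 1 array, the dim replicate 1, so it cannot decide what part replicate 2 had in the result. Tnni2 had an interaction of 2.80 (SE 0.41), from a difference of -1.17 without irradiation and 1.63 between winners and losers. B3gat3 went from -0.78 to 2.55 and Skil from -1.24 to 1.78. In the other direction Phldb1 went from 0.79 to -1.24, Sox21 from 1.19 to -1.36 and Abhd6 from 1.002 to -1.46. In all 6, which the rule picked for this contrast, the genotype difference had opposite signs in the 2 settings, with an adjusted p of 0.297 (limma, Benjamini-Hochberg). The arrays unirradiated mp53 replicate 1 and loser replicate 1 were the dimmest of the 12.

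Against mp53 minus WT in irradiated mice without competition, limma again called 0 probes (0%), and 1023 (7.57%) had an unadjusted p under 0.05, a count that ran from 400 probes (without non-competing mp53 replicate 1) to 1740 (without non-competing mp53 replicate 2). Ndn had an interaction of -5.36 (SE 0.79): mp53 minus WT was 0.70 without competition, against -4.66 between winners and losers. Khnyn and Hgf, the ligand of the Met receptor, gave -3.31 (SE 0.61) and -2.31 (SE 0.43), and other probes of Khnyn differed in sign for winner against loser. On the positive side, Anxa2 gave 3.63 (SE 0.62), the actin-binding gene Lima1 2.16 (SE 0.45) and the transcription factor Sp1 1.84 (SE 0.39). Adjusted p was 0.609 for each of these 6 (limma, Benjamini-Hochberg). The medians of the HSC transcription factor and HSC surface lists were 0.26 and 0.28 in mp53 minus WT without competition and -0.07 and -0.03 without irradiation, against -1.28 and -0.73 here. For neutrophil genes they were -2.14 and 0.16, against 2.61 here, but the first rested on 1 array. Their summed level was 1657 on non-competing mp53 replicate 1 against 58650 on WT replicate 1, and 76690 against 82950 in replicate 2.

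**Figure D5:**
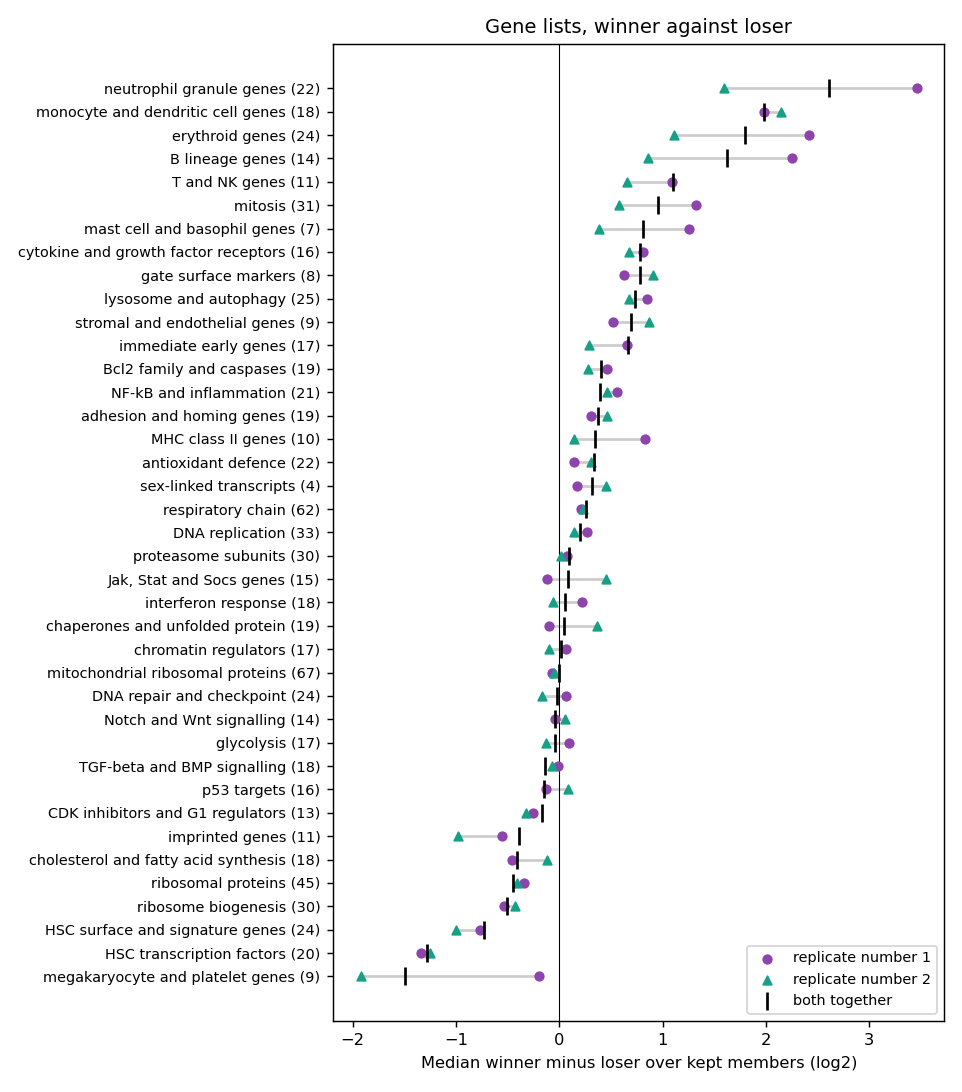
Median winner-minus-loser difference (log2, x axis) of each of the 39 gene lists, with the number of kept members in brackets. Circles and triangles are replicate numbers 1 and 2, and black bars are both together. Most mature lineage lists lie to the right, and the HSC and megakaryocyte lists to the left, and 11 lists (HSC transcription factors, p53 targets, CDK inhibitors, DNA repair, TGF-beta, Notch and Wnt, ribosome biogenesis, ribosomal proteins, glycolysis, cholesterol synthesis and megakaryocyte genes) turn sign with median scaling, where the median of all genes is 1.27.

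The replicate numbers disagreed in direction for some genes, of which the rule names 8. Ninl, a centrosomal protein, was at 6.14 and 6.75 on the winner arrays and 4.35 and 8.46 on the loser arrays, and Otub2, a deubiquitinase, at 7.30 and 6.62 on the winner arrays and 6.22 and 8.11 on the loser arrays. Khdc4 was at 6.85 and 6.48 on the winner arrays and 8.05 and 4.79 on the loser arrays and Prepl, a serine peptidase, at 6.18 and 6.38 on the winner arrays and 7.53 and 4.60 on the loser arrays. In each of these 4 the loser arrays stood farther apart than the winner arrays, and the winner-minus-loser sign turned between the numbers. Cmtm3, Plpp3, Ahcyl1 and Mipol1 also turned, with within-number differences of 1.15 and -1.22, 1.30 and -1.05, -1.30 and 1.52 and -1.56 and 1.25. With median scaling, the negative within-number difference turned positive for 6 of the 8, so that both numbers then had the same sign, the exceptions being Ahcyl1 and Mipol1. The probes named for Prepl, Ahcyl1 and Khdc4 were not the brightest of their genes.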

How the data were processed

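Per the labels, RNA of 200 sorted cells per array was amplified and hybridised to Illumina arrays. The authors deposited non-normalized bead intensity with a detection p-value per probe in 1 table per replicate number. Their processed intensity values have no stated normalization and were used as an alternative, and the scanner software is not given in the sources used here. Intensities were background-corrected with the detection p-values and quantile-normalized (neqc in limma 3.58.1, R 4.3.3, offset 16), then taken as log2. The filter left 13512 of 46632 probes, those whose detection p was under 0.05 in the whole of 1 or more groups. limma fitted 6 group means over 12 arrays (6 residual degrees of freedom), with Benjamini-Hochberg adjustment over all kept probes. The fit was tested on simulated data with independent noise on each array. Deviations shared by same-numbered arrays and differences in brightness were not simulated, so that test does not cover them. A single gene symbol was given for 29976 probes, several for 10 and none for 16646, and 29921 gene IDs were found in the RefSeq table. The probe with the highest mean among those kept stood for its gene, and for 651 of the 1542 genes with several kept probes their signs differed.

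The members and gene lists were chosen with earlier results of these data known. Named were the 12 genes per direction with the smallest p that differed by at least 1 log2 in both replicate numbers, the 3 members per list with the smallest p, 13 genes fixed by name, 6 genes per direction detected in 1 group only, 4 per orientation opposite between replicate numbers, and 3 per direction and interaction. Alternatives changed the normalization, offset, filter, prior, covariates and arrays. The number of arrays limits the precision.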

Additional observations from a re-analysis of the deposited data

How the results depend on the processing

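Of 3800 single-gene values computed under alternatives, 3746 kept their direction and side of the threshold. Of the rest, 38 turned direction, 10 passed the threshold and 6 within-number differences moved. A winner-minus-loser direction could not turn where only the block, prior or filter changed, or where arrays of other groups were left out. The count of 3746 therefore does not measure stability. With median scaling, which makes 82.5% of probes higher in winners, 35 turned. Differences became 0.12 for Il11ra2, 0.34 for Haghl, 0.50 for Gprasp1, 0.61 for Glb1, 0.091 for Cd34, 1.01 for Txnip, 1.28 for Rfc5, 1.00 for Chaf1b, 0.23 for Trp53bp1, 1.28 for Msh6, 1.03 for Psmb8, 0.94 for Smad3, 0.78 for Gar1, 0.27 for Nolc1, 0.70 for Wdr43, 0.24 for Rpl22, 0.49 for Rpl21, 0.76 for Rpl32, 0.79 for Mrpl38, 1.29 for Mrpl50, 1.46 for Mrps34 and 1.16 for Ndufa10. They became 1.18 for Psmd8, 1.44 for Tpi1, 0.73 for Pfkl, 0.53 for Scd2, 0.69 for Fads1, 0.79 for Srebf2, 1.41 for Hsph1, 1.02 for Hdac3, 0.021 for Xist, 1.74 for Mdm2, 1.60 for Ccng1 and 0.38 for Kit, and the irradiation interaction of Abhd6 became 0.34. The 6 that moved turned positive, to 0.66 for Ninl, 0.48 for Cmtm3, 0.86 for Otub2 and 0.99 for Plpp3 in replicate number 2, and 0.15 for Prepl and 0.38 for Khdc4 in number 1. With brightness as a covariate Xaf1 became 0.0058 and Ccng1 0.33, and with single arrays left out Ccng1 ran from -1.20 to 0.25, the latter without loser replicate 1. The causes were not tested.

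Counts at an unadjusted p under 0.05 were 982 probes higher and 880 lower in winners. They were 3365 and 9 with median scaling, 1681 and 2180 with no filter, and 294 and 394 over probes with a mean of at least 6. Higher probes numbered 459 with quantile normalization within replicate numbers and 507 in the authors' table. Leaving out single arrays gave 394 to 1099 higher and 342 to 1526 lower. Adjusted calls numbered 1 with median scaling, 1 with no filter and 3 with a trended and robust prior, and stayed at 0 with each array left out. Probes at least 1 log2 higher in both replicate numbers were 924, against 4489 with median scaling, 453 with an offset of 50, 515 in the authors' table and 463 at a mean of at least 6. Those lower were 758, against 19, 289, 301 and 434.

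For the irradiation interaction, 2106 unadjusted calls became 4162 with median scaling, 4254 with no filter and 453 at a mean of at least 6, and ran from 1117 to 4051 with single arrays left out, with 0 to 1460 adjusted calls. For the competition interaction, 1023 became 424 within replicate numbers, 452 in the authors' table, 2209 with no filter and 525 at a mean of at least 6, and ran from 400 to 1740, with 0 adjusted calls.

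With the replicate number as a block, 1768 probes were higher and 1724 lower at an unadjusted p under 0.05, the interactions had 3893 and 2023, the smallest adjusted p was 0.127 and no probe passed. Deviations of same-numbered arrays correlated at 0.64 between winners and losers, the highest of 15 pairs of groups. The lowest, unirradiated WT with non-competing mp53, was 0.07, under the 0.1 asked of every pair. The next lowest, unirradiated WT with unirradiated mp53, was 0.33, so every other pair lay between 0.33 and 0.64. The labels give no pairing, so the fit without the block was kept, and whether the winner and loser arrays are paired remains undecided. Of the 39 list medians, 25 turned sign in at least 1 setting. Dim losers limit the fold to a bound wherever a probe was not above background there.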
